A study of Mus musculus with 24 samples.

Results

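The cerebellum of mouse pups with neonatal hypoxic-ischemic brain injury (HIBI) was compared with that of sham controls by miRNA sequencing, in 8 of the 24 libraries of the study. The miRNAs described are the 434 of 1531 mouse entries in the cerebellum table whose mean over the 8 libraries was above 10 CPM (counts scaled to 1e+06 per library, for this minimum before TMM scaling). They held 99.8% to 99.9% of the mouse counts of each library. The entries nearest to the minimum were miR-23a-5p (9.84 CPM) and miR-5100 (9.88 CPM) below it, and miR-26b-3p (10.1 CPM) and miR-185-3p (10.5 CPM) above it.

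All pups were of the CD1 strain, of both sexes and 9 days old. In the HIBI group (pups 1, 4, 5 and 7) the right common carotid artery was cauterized, and after 2 h with the dam the pups breathed 8% oxygen for 30 min. In the sham group (pups 2, 3, 6 and 8) the neck was opened and closed under the same isoflurane and bupivacaine, the artery was spared, and the pups were kept at normal oxygen away from the dam for the same time. Right-sided cerebellum was taken 30 min after injury, and cortex and striatum/thalamus came from the same pups. The carotid artery feeds the forebrain, while the cerebellum is supplied from the vertebral and basilar arteries, so the study reads the cerebellum as hypoxic but not ischemic. No group received hypoxia alone or ligation alone, and their parts in the values below cannot be told apart.

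MicroRNAs are cut from RNA hairpins, and either arm of a hairpin (5p or 3p) can yield a mature miRNA. The mature strand guides the silencing complex to messenger RNAs mainly through its seed, bases 2 to 8 from the 5′ end, so miRNAs with the same seed share many predicted targets. At this age the mouse cerebellum still makes granule neurons in its outer layer. The let-7 family marks the passage from dividing to differentiated cells, miR-17/92 relatives are known from dividing cells, and miR-124 and miR-9 from neurons.

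The tissue label was checked with markers. In CPM before TMM scaling, medians over the cerebellum libraries were 334 CPM for miR-206-3p, 464 CPM for miR-195a-5p and 417 CPM for miR-497a-5p. In striatum/thalamus the same 3 miRNAs had medians of 28.3, 25.7 and 29.7 CPM, and in cortex of 6.70, 111 and 119 CPM. The forebrain-enriched miR-221-3p was at 222.9 CPM in the cerebellum against 771 CPM in striatum/thalamus and 1456 CPM in cortex. In bulk tissue, fewer cells of a type and less RNA per cell cannot be told apart.

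The mature sequences below come from RefSeq (GRCm38.p6), where 368 of the 434 miRNAs had an entry, and capitals mark the seed. The first set is the let-7 seed family, which is shown because its members differ by a few bases and differed in fold change.
let-7b-5p: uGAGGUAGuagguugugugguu
let-7c-5p: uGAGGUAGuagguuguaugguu
let-7d-5p: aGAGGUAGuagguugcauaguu
let-7a-5p: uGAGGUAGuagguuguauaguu
let-7e-5p: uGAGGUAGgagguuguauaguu
let-7i-5p: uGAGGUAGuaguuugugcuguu
let-7g-5p: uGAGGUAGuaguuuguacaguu
let-7f-5p: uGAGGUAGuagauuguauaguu
Counted from 1 at the 5′ end and with let-7a-5p as the reference, let-7b-5p carries A17G and A19G, let-7c-5p carries A19G, and let-7f-5p carries G12A. The ninth member of the seed family is miR-98-5p.

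The second set holds the leading miRNAs that were lower after HIBI, with the seed sharers of 2 of them.
miR-423-5p: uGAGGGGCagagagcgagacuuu
miR-128-2-5p: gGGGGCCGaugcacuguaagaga
miR-128-1-5p: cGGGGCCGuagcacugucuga
miR-18a-3p: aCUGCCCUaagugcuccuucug
miR-351-3p: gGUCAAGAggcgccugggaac
let-7d-3p: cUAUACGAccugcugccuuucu
miR-125a-5p: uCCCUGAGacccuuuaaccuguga
miR-125b-5p: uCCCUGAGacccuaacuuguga

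The third set holds the leading miRNAs that were higher, again with seed sharers.
miR-129-2-3p: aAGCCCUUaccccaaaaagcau
miR-129b-5p: gCUUUUUGggguaagggcuucc
miR-1251-5p: aCUCUAGCugccaaaggcgcu
miR-344-3p: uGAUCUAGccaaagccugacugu
miR-7a-5p: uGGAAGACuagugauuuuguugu
miR-7b-5p: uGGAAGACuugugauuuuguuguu
miR-410-5p: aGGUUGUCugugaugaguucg
miR-410-3p: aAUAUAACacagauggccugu
miR-344d-3p: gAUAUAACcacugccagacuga
miR-31-5p: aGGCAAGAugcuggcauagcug
miR-137-3p: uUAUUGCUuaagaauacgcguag

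The libraries held 1254185 to 2452740 mouse miRNA counts in the HIBI pups and 1733810 to 2940887 in the sham pups. HIBI libraries spread their counts over more miRNAs. The 10 most abundant miRNAs of each library took 52.2% to 54.9% of its counts in the HIBI pups and 55.9% to 60.5% in the sham pups, without overlap. The effective number of miRNAs, the exponential of the Shannon entropy of the shares, was 49.7 to 55.8 after HIBI and 42.5 to 49.4 in sham, also without overlap. Entries with at least 1 count numbered 826 to 912 in HIBI and 794 to 863 in sham, and these ranges overlap. No test was made of these whole-library values.

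**Figure D1:**
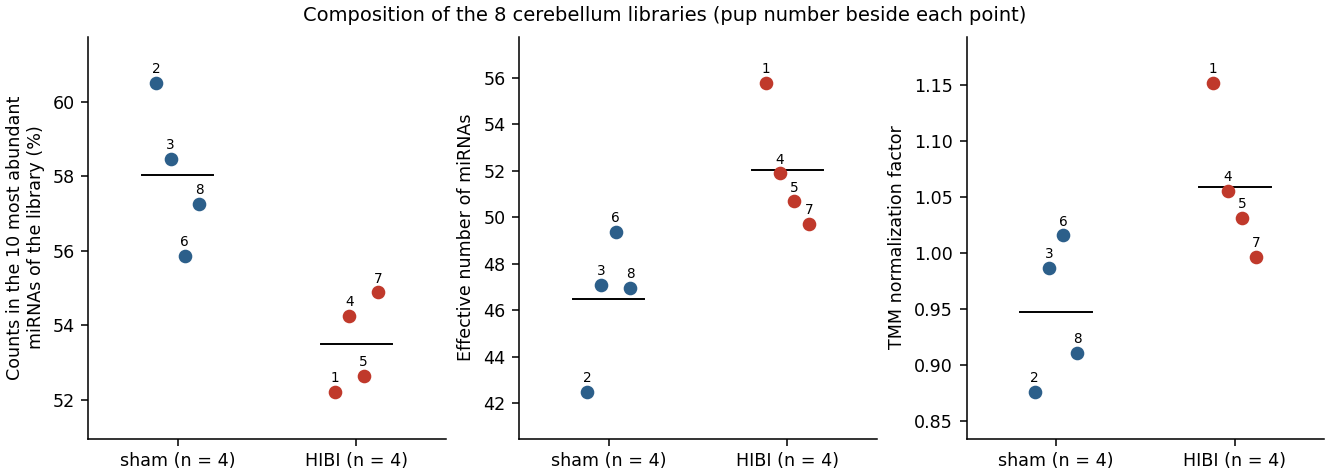
Share of counts in the 10 most abundant miRNAs (%), effective number of miRNAs and TMM normalization factor (no unit) in each cerebellum library. Points are pups, with their numbers, and lines are group means; the HIBI points sit below the sham points for the share (at most 54.9% against at least 55.9%) and above them for the effective number.

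Of the 10 miRNAs with the highest mean level, 3 were lower after HIBI at an unadjusted p under 0.05. These were let-7c-5p, let-7b-5p and miR-125a-5p. The share of let-7c-5p was 6.44%, 6.75%, 8.54% and 7.38% in HIBI pups 1, 4, 5 and 7, and 11.1%, 9.79%, 9.29% and 7.67% in sham pups 2, 3, 6 and 8. For let-7c-5p this gave a log2 fold change of -0.54 ± 0.21 (SE), below the 1.5-fold limit. The neuronal miR-9-5p (log2 fold change 0.19 ± 0.28) and miR-124-3p (-0.04 ± 0.21), and the broadly expressed miR-125b-5p (-0.11 ± 0.20), moved by less than their errors. The other members of the 10 were miR-181a-5p (-0.39 ± 0.25), miR-26a-5p (-0.24 ± 0.29), let-7a-5p (-0.34 ± 0.21) and miR-128-3p (-0.20 ± 0.20).

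A miRNA was called differentially expressed where its level differed more than 1.5-fold with p under 0.05 before adjustment in edgeR's quasi-likelihood test (n = 4 per group). Of the 434 miRNAs, 34 met these criteria (7.83%), 16 higher (3.69%) and 18 lower (4.15%) after HIBI. None passed a Benjamini-Hochberg adjusted p of 0.05 in this test. The adjusted p was 0.432 for each of the 34, and 44 miRNAs had an unadjusted p under 0.05. DESeq2 gave 45 miRNAs by the same criteria and 0 by adjusted p. The groups did not overlap for 16 of the 434 (3.69%), and 9 of the 34 were among these 16.

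The number of miRNAs that met the criteria rested on single pups. It was 16 without sham pup 2, 19 without sham pup 3, 63 without HIBI pup 1 and 80 without sham pup 6. Of the 34, 9 met the criteria in all 8 fits that left out a pup and in 8 other settings. These settings were other scalings, tests and CPM minimums, and GC correction was not among them. The 9 were miR-423-5p, miR-128-2-5p, miR-18a-3p, let-7b-5p, miR-486a-5p, miR-486b-5p, miR-351-3p and let-7d-3p, all lower, and miR-1251-5p, which was higher (a call lost without pups 1 and 2 together). The near-identical miR-486a-5p and miR-486b-5p count as 1 measurement. Over all 434 miRNAs the median log2 fold change was 0.11 with TMM, 0.27 with library size alone and -0.02 with upper-quartile scaling. With the scaling the higher share of the calls went from 47.1% (TMM) to 80.4% (library size, 41 higher and 10 lower) and 15.2% (upper quartile, 7 higher and 39 lower). Of the 34, 26 still met the criteria with library size alone and 25 with upper quartile. The losses given below by miRNA are mainly those from leaving out pups, and losses by scaling are not listed for each.

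**Figure D2:**
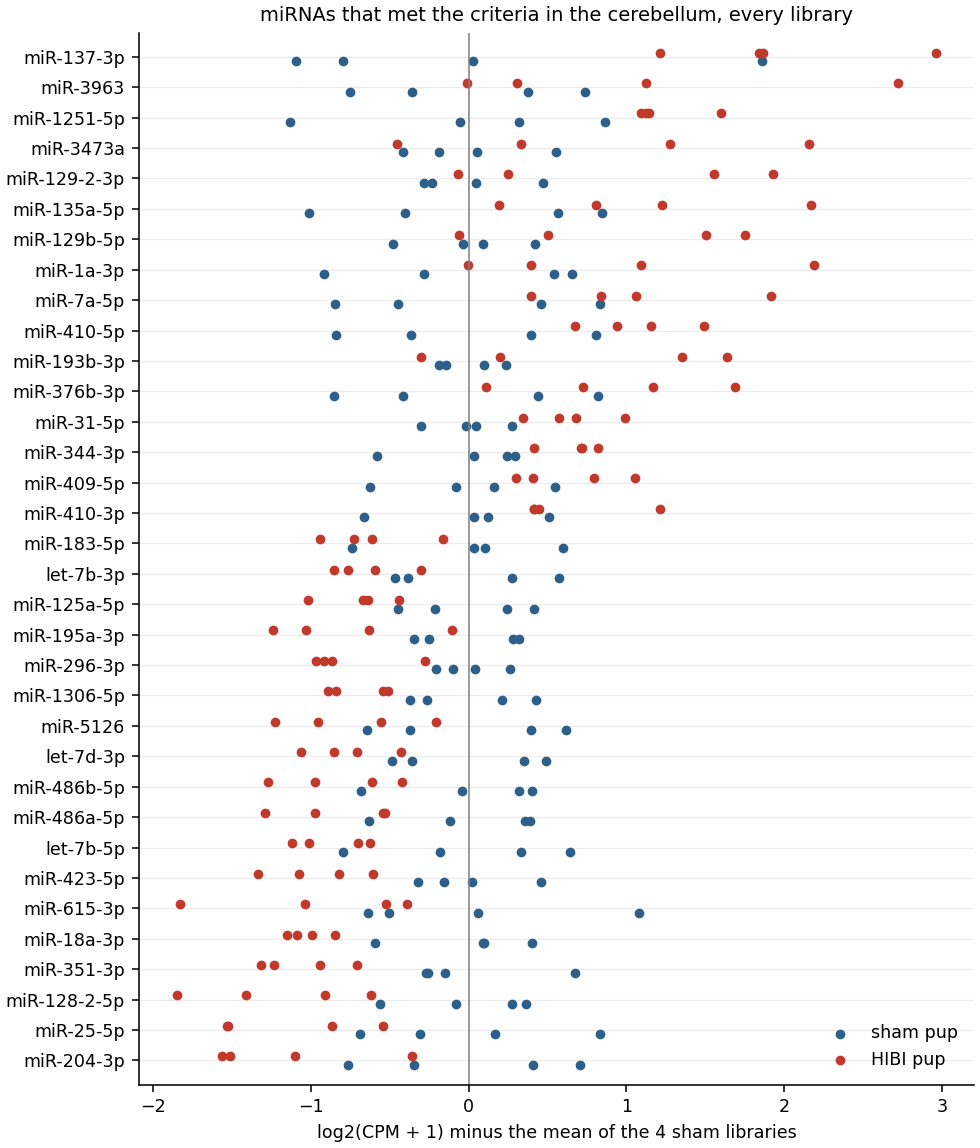
Every cerebellum library for the 34 miRNAs that met the criteria, on the log2(CPM + 1) scale with the sham mean set to 0 (x axis), ordered by fold change (y axis). Red points are HIBI pups and blue points sham pups; the groups are separate for 9 of the 34, such as miR-423-5p and miR-1251-5p, and overlap for the others.

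Among the miRNAs that were lower, miR-423-5p had the smallest p. Its hairpin lies in an intron of Nsrp1 (GRCm38 chr11:77078064-77078172, minus strand). In the order of pups given above, miR-423-5p had 669, 1110, 799 and 955 CPM in HIBI and 2322, 1712, 1350 and 1513 CPM in sham. All 4 HIBI pups were below all 4 sham pups. The log2 fold change was -0.96 ± 0.24 (SE), and the two-sided exact permutation p was 0.0286, the smallest that 4 against 4 pups allow. In cortex it was -0.00 and in striatum/thalamus 0.36 on the same scale.

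Next came miR-128-2-5p, the less abundant arm of a brain hairpin in an intron of Arpp21. It had 50.5, 97.7, 68.8 and 120 CPM in HIBI and 238, 224, 125 and 175 CPM in sham. Again no HIBI pup reached the lowest sham pup, although HIBI pup 7 and sham pup 6 were close. The log2 fold change was -1.17 ± 0.32 (exact permutation p = 0.0286). The seed sharer miR-128-1-5p, at 8.77 to 16.3 CPM, had a log2 fold change of -0.15 ± 0.35, and the dominant arm miR-128-3p is given above.

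The 3p arm miR-18a-3p comes from the miR-17/92 cluster of proliferating cells. It had 18.7, 20.8, 16.6 and 17.4 CPM in HIBI and 50.7, 40.9, 24.97 and 40.7 CPM in sham, without overlap, for a log2 fold change of -1.10 ± 0.31 (exact permutation p = 0.0286). The HIBI values lay close together, while sham pup 6 was nearest to them. For miR-351-3p the values were 10.4, 12.4, 8.30 and 7.80 CPM in HIBI and 18.7, 33.9, 17.3 and 17.2 CPM in sham. Sham pup 3 stood above the other sham pups, and the log2 fold change was -1.16 ± 0.37 (exact permutation p = 0.0286).

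The let-7b hairpin lies in an exon of the noncoding gene Lncppara on chromosome 15. Its main arm let-7b-5p had 19560, 26131, 27531 and 21010 CPM in HIBI and 66252, 53448, 37334 and 24467 CPM in sham. Sham pup 8 fell inside the HIBI range and the other sham pups lay above it. This gave a log2 fold change of -0.95 ± 0.29, with an exact permutation p of 0.0857. The opposite arm let-7b-3p had a log2 fold change of -0.68 ± 0.26 and also met the criteria. The call of let-7b-3p was lost without HIBI pup 4 (-0.63), HIBI pup 5 (-0.61), sham pup 2 (-0.47) or sham pup 3 (-0.65). With scaling by library size alone it was lost as well (-0.50).

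For let-7d-3p, the lesser arm of the let-7d hairpin, HIBI pups had 3354, 4060, 2620 and 3024 CPM and sham pups 7700, 6982, 4269 and 3900 CPM. Only HIBI pup 4 and sham pup 8 crossed, and the log2 fold change was -0.81 ± 0.26 (exact permutation p = 0.0571). The abundant miR-125a-5p, a neural miRNA whose hairpin lies within Spaca6 on chromosome 17, had 49921, 43564, 33470 and 42506 CPM in HIBI and 90157, 80008, 49722 and 58525 CPM in sham. HIBI pup 1 and sham pup 6 were about equal. The log2 fold change was -0.72 ± 0.23 (exact permutation p = 0.0571), against -0.11 ± 0.20 for miR-125b-5p and -0.12 ± 0.21 for miR-351-5p, which have the same seed. The call of miR-125a-5p was lost without sham pup 2 (-0.57), and with scaling by library size alone (-0.54).

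The erythroid and muscle miRNA miR-486a-5p had 569.8, 573, 339 and 421 CPM in HIBI and 1085, 1064, 534 and 765 CPM in sham. Sham pup 6 lay within the HIBI range. Its log2 fold change was -0.86 ± 0.27 (exact permutation p = 0.0857), and that of miR-486b-5p was -0.84 ± 0.27. The levels of both were nearly equal in each library, and because their mature strands are near-identical the counts of this pair cannot be treated as separate measurements.

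The other miRNAs that were lower are given by their log2 fold changes. They were miR-204-3p (-1.22 ± 0.42), miR-25-5p (-1.21 ± 0.42), miR-615-3p (-1.03 ± 0.44), miR-5126 (-0.78 ± 0.32), miR-1306-5p (-0.75 ± 0.29), miR-296-3p (-0.74 ± 0.25), miR-195a-3p (-0.72 ± 0.30) and miR-183-5p (-0.66 ± 0.29). Of these, miR-296-3p and miR-1306-5p had groups that did not overlap. The hairpin of miR-25 lies in Mcm7, a replication licensing gene, that of miR-1306 in Dgcr8, which encodes a partner of the enzyme that cuts hairpins, and that of miR-204 in Trpm3. The hairpin of miR-615 lies in an intron of Hoxc5. For miR-615-3p, sham pup 3 had 142.6 CPM and the other sham pups 42.7 to 69.9 CPM. The same library was high in the hindbrain and spinal cord miRNAs of the Hox clusters, with a sum of 1998 CPM over the 4 Hox markers against 512 to 960 CPM in the other libraries. The part of this library's Hox level in the miR-615-3p value was not tested, and without this library its value was -0.57. Of these 8 calls, all but that of miR-296-3p were lost when a single pup was left out. Leaving out sham pup 2 ended those of miR-204-3p (-0.95), miR-5126 (-0.67), miR-1306-5p (-0.59), miR-195a-3p (-0.63) and miR-183-5p (-0.68). Leaving out sham pup 3 ended those of miR-615-3p, miR-25-5p (-0.90), miR-5126 (-0.59), miR-1306-5p (-0.73), miR-195a-3p (-0.65) and miR-183-5p (-0.46), and HIBI pup 5 those of miR-615-3p (-0.81), miR-5126 (-0.70), miR-1306-5p (-0.69), miR-195a-3p (-0.62) and miR-183-5p (-0.61). Leaving out HIBI pup 7 ended those of miR-615-3p (-0.97), miR-5126 (-0.63) and miR-183-5p (-0.56), HIBI pup 1 those of miR-195a-3p (-0.58) and miR-183-5p (-0.65), HIBI pup 4 those of miR-195a-3p (-0.74) and miR-1306-5p (-0.68), and sham pup 8 that of miR-183-5p (-0.69).

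Among the miRNAs that were higher, miR-129-2-3p and miR-129b-5p come from hairpins on opposite strands of the same stretch of chromosome 2 (GRCm38, chr2:94241364-94241453 and chr2:94241378-94241442). The miR-129 family is enriched in neurons. In HIBI pups miR-129-2-3p had 1795, 2325, 724 and 582 CPM, and in sham pups 500, 518, 844 and 630 CPM. HIBI pups 1 and 4 were above every other library and pups 5 and 7 lay in the sham range. Its log2 fold change was 1.12 ± 0.40 (exact permutation p = 0.200). The same pups stood out for miR-129b-5p, with 96.9, 115, 47.8 and 32.1 CPM in HIBI and 23.7, 32.7, 45.1 and 35.8 CPM in sham (log2 fold change 1.09 ± 0.40, exact permutation p = 0.143). Both calls were lost without HIBI pup 4, at 0.73 and 0.77, and that of miR-129b-5p also without sham pup 2 (0.95).

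The hairpin of miR-1251 lies in an intron of Rmst, a noncoding neural gene, on chromosome 10. In HIBI pups miR-1251-5p had 52.6, 38.0, 37.5 and 36.7 CPM, and in sham pups 7.07, 21.0, 31.2 and 16.05 CPM. Every HIBI pup was above every sham pup, and the log2 fold change was 1.13 ± 0.40 (exact permutation p = 0.0286). In cortex its log2 fold change was -1.46 and in striatum/thalamus -0.19. Without pups 1 and 2 together the value was 0.71 and no longer met the criteria, although the call held without either alone. An intron of Rmst also holds 1 of the 2 hairpins of miR-135a-5p, which had a log2 fold change of 1.11 ± 0.46. The call of miR-135a-5p was lost without HIBI pup 5 (0.62), HIBI pup 7 (1.12), sham pup 2 (0.85) or sham pup 3 (0.94), and after GC correction (0.58).

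The brain miRNA miR-344-3p had 259.6, 259, 209 and 278 CPM in HIBI and 105, 161, 186 and 193 CPM in sham, without overlap. Its log2 fold change was 0.64 ± 0.24 (exact permutation p = 0.0286). For miR-31-5p the values were 66.5, 71.6, 88.9 and 56.4 CPM in HIBI and 45.8, 35.7, 53.8 and 43.7 CPM in sham, also without overlap. Its log2 fold change was 0.66 ± 0.26 (exact permutation p = 0.0286), while those in cortex and striatum/thalamus were -0.38 and -0.65. The call of miR-344-3p was lost without HIBI pup 7 (0.59) or sham pup 2 (0.48), and after GC correction (0.57). That of miR-31-5p was lost without HIBI pup 5 (0.53), sham pup 3 (0.54) or sham pup 8 (0.61).

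The neuronal and neuroendocrine miR-7a-5p had 1063, 1446, 3056 and 1692 CPM in HIBI and 450, 593, 1442 and 1111 CPM in sham. HIBI pup 5 was the highest library and sham pups 2 and 3 the lowest, with the others overlapping. The log2 fold change was 1.01 ± 0.40 (exact permutation p = 0.114), and that of its seed sharer miR-7b-5p was 0.69 ± 0.34. Without HIBI pup 5, sham pup 2 or sham pup 3 miR-7a-5p did not meet the criteria (0.64, 0.78 and 0.84).

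The miRNA with the greatest fold change among those that met the criteria was miR-137-3p, which acts in neuronal maturation. It was sparse, with 15.9, 9.73, 35.2 and 15.6 CPM in HIBI and 1.66, 1.17, 15.8 and 3.73 CPM in sham. These values rest on 23, 22, 89 and 34 counts in HIBI and 4, 2, 33 and 10 counts in sham. Sham pup 6 reached the HIBI range, and the log2 fold change was 1.77 ± 0.71 (exact permutation p = 0.0857). Without sham pup 6 it was 3.00. The call was lost without HIBI pup 5 (1.28), sham pup 2 (1.45), sham pup 3 (1.44) or sham pup 8 (1.58).

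From the imprinted cluster on chromosome 12, miR-410-5p had 31.8, 38.5, 56.9 and 44.9 CPM in HIBI and 14.97, 10.5, 35.1 and 26.1 CPM in sham. Only sham pup 6 reached the HIBI range. Its log2 fold change was 0.99 ± 0.39 (exact permutation p = 0.0571), against -0.86 in cortex and -0.34 in striatum/thalamus. The other arm, miR-410-3p, also met the criteria (0.61 ± 0.28), and its seed sharer miR-344d-3p had 0.69 ± 0.38. The call of miR-410-5p was lost without HIBI pup 5 (0.82), sham pup 2 (0.84) or sham pup 3 (0.75), and that of miR-410-3p without HIBI pup 1 (0.37), sham pup 2 (0.43), sham pup 3 (0.59) or sham pup 8 (0.61).

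The remaining miRNAs that were higher were miR-3963 (1.45 ± 0.66), miR-3473a (1.13 ± 0.50), the muscle miRNA miR-1a-3p (1.05 ± 0.48), miR-193b-3p (0.94 ± 0.41), miR-376b-3p (0.89 ± 0.40) and miR-409-5p (0.61 ± 0.27). The values of miR-3963 rested on HIBI pup 1, at 42.2 CPM beside 5.50 to 13.3 CPM in pups 4, 5 and 7. Without HIBI pup 1 its log2 fold change was 0.52, and that of miR-3473a was 0.53. For miR-1a-3p HIBI pup 5 had 381 CPM, and without that pup the log2 fold change was 0.44. None of these 6 calls held in every fit with 1 pup left out. All 6 were lost without sham pup 2. Values without it were 1.58 for miR-3963, 1.00 for miR-3473a, 0.80 for miR-1a-3p, 0.90 for miR-193b-3p, 0.66 for miR-376b-3p and 0.44 for miR-409-5p. A lost call need not mean a smaller fold change, as with miR-3963, at 1.45 with all pups. Without sham pup 3 the calls of miR-1a-3p (0.91), miR-193b-3p (1.01), miR-376b-3p (0.73) and miR-409-5p (0.56) were lost. Without HIBI pup 1 the calls of miR-193b-3p (0.60) and miR-409-5p (0.46) were also lost. Those of miR-376b-3p (0.59) and miR-409-5p (0.57) were lost without HIBI pup 5, and those of miR-1a-3p (1.07) and miR-376b-3p (0.85) without HIBI pup 7. Calls lost without HIBI pup 4 were those of miR-3963 (1.55), miR-3473a (1.08) and miR-193b-3p (0.76). Without sham pup 6 or pup 8 those of miR-3963 (1.19 and 1.26), miR-3473a (1.11 and 1.03) and miR-193b-3p (0.94 and 0.85) were lost, and without pup 8 that of miR-409-5p (0.62).

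Several other miRNAs, among them some that the study names for the cerebellum, did not meet the criteria here. The study lists miR-410-5p, miR-1264-3p, miR-1298-5p, miR-5126 and miR-34b-3p as having an effect in the cerebellum opposite to that in the other regions. It chose them from miRNAs significant in more than 1 region, which need not include the cerebellum. Of these, miR-410-5p and miR-5126 met the criteria here, as given above. For miR-1264-3p and miR-1298-5p the log2 fold changes in the cerebellum were -0.00 ± 0.53 and -0.73 ± 0.55. For miR-6240 (1.76 ± 0.96), HIBI pup 1 had 634 CPM and the other 7 libraries 11.9 to 57.9 CPM. The choroid plexus miRNA miR-204-5p had a log2 fold change of -0.72 ± 0.34, the ciliated-cell miRNA miR-34b-3p -0.78 ± 0.39, miR-486a-3p -0.89 ± 0.42 and miR-320-3p -0.58 ± 0.23. For miR-335-5p the value was 0.97 ± 0.46 and for miR-384-3p 1.09 ± 0.54. Both miR-154-5p and miR-1934-5p were under the CPM minimum.

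Members of the let-7 seed family did not move alike. From let-7b-5p (-0.95 ± 0.29) the log2 fold changes ran through let-7c-5p (-0.54 ± 0.21), let-7d-5p (-0.37 ± 0.21), let-7a-5p (-0.34 ± 0.21) and let-7e-5p (-0.25 ± 0.22). On the other side of 0 were let-7i-5p (0.08 ± 0.24), let-7g-5p (0.15 ± 0.28), let-7f-5p (0.17 ± 0.31) and miR-98-5p (0.38 ± 0.34). Of these 9, let-7b-5p alone met the criteria, and the differences between members were not tested. GC content was 45.5% in let-7b-5p and 31.8% in both let-7f-5p and miR-98-5p. It was 40.9% in let-7c-5p, let-7d-5p, let-7e-5p and let-7i-5p, and 36.4% in let-7a-5p and let-7g-5p. Members of equal GC content thus differed in log2 fold change. After the GC correction described below, let-7b-5p had -1.10, and the median over all let-7 and miR-98 miRNAs was -0.38. With both arms counted, 3 of 16 let-7 and miR-98 miRNAs met the criteria, all lower (4.15% of all 434 were lower), and 10 of 16 had a negative log2 fold change (median -0.29, against 0.11 over all 434). HIBI pup 5 and sham pups 2 and 3 lay at the ends of the first principal component of these libraries, and HIBI pup 1 at the end of the second. The let-7 and miR-98 median was -0.15 without pups 1 and 2, where that of all 434 was 0.03, and -0.37 to -0.21 with 1 pup left out. Reads of these near-identical sequences can be split between members by the aligner, so their separate levels are uncertain.

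**Figure D3:**
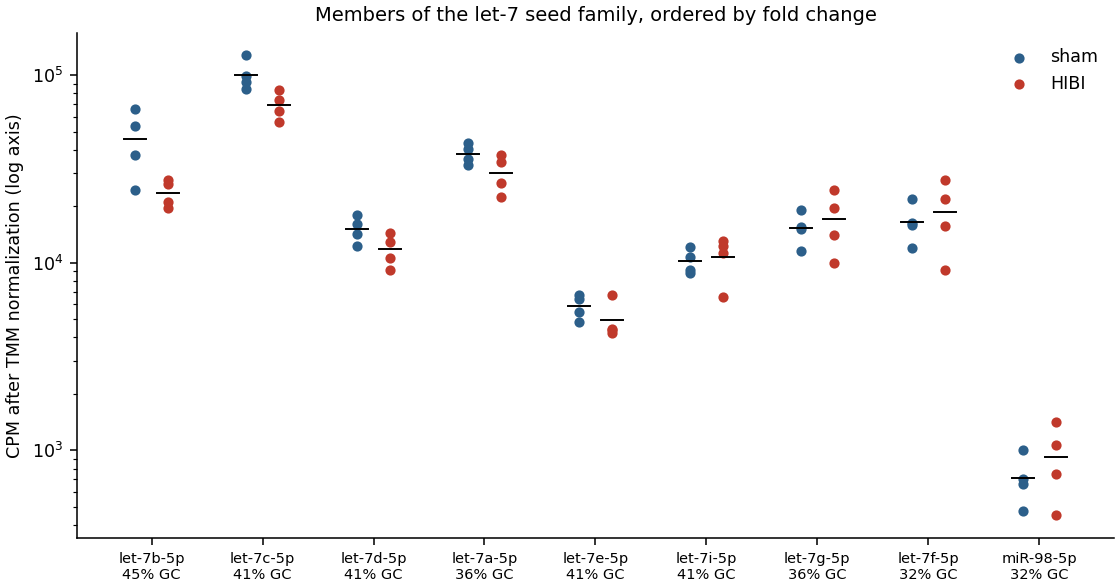
Level of each member of the let-7 seed family in the 8 cerebellum libraries, in CPM after TMM normalization on a log axis, ordered by log2 fold change with the GC content under each name. Points are pups and lines are group means; let-7b-5p and let-7c-5p at the left are lower in HIBI pups, and the members at the right overlap.

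Fold change went with GC content across miRNAs. Over the 368 miRNAs with a sequence, Pearson's r between log2 fold change and GC content was -0.23 and Spearman's rho -0.25, given as a description since these miRNAs share libraries. Between log2 fold change and log2 of the mean sham level Pearson's r was similar, at -0.22, and the sham level also enters the fold change. The median log2 fold change was 0.40 for 56 miRNAs under 40% GC, 0.18 for 131 between 40% and 50%, -0.02 for 115 between 50% and 60%, and -0.04 for 66 at 60% or over. Of the 15 higher miRNAs with a sequence, 0 had 60% GC or over, and of the 16 lower ones 0 had under 40%. Median GC content was 47.6% in the higher and 57.8% in the lower miRNAs, against 47.8% over all with a sequence.

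This relation differed among pups of the same group. In the class under 40% GC, the median deviation of log2(CPM + 1) from the mean of the 8 libraries was -0.38, -0.03, 0.71 and 0.51 in HIBI pups 1, 4, 5 and 7, and -0.47, -0.34, 0.13 and 0.14 in sham pups 2, 3, 6 and 8. HIBI pups 5 and 7 were highest and sham pup 2 lowest, while HIBI pup 1 lay with sham pups 2 and 3. After a loess correction of each library for GC content, 44 of 368 miRNAs met the criteria, 17 higher and 27 lower. Of the 31 with a sequence, 24 still met them, 10 higher and 14 lower. Another 6 kept their sign but no longer met the criteria. The 6 include miR-135a-5p and miR-344-3p, and the losses listed above by miRNA do not name the others. The sign of miR-5126, whose entry is 100% GC, turned to 0.07. The part of GC content in the other values was not tested beyond this correction.

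**Figure D4:**
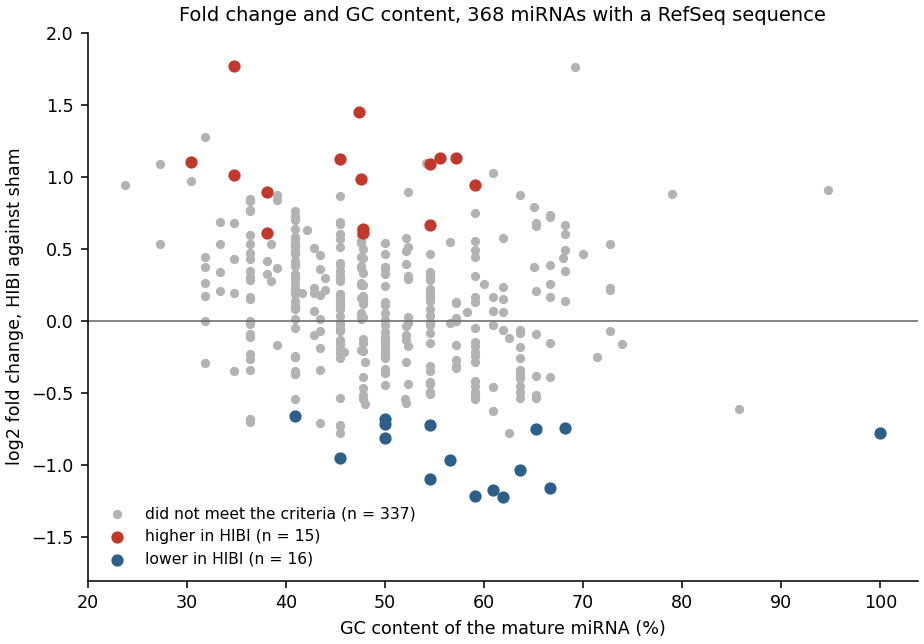
Log2 fold change between HIBI and sham cerebellum (y axis) against the GC content of the mature miRNA in percent (x axis), for 368 miRNAs. Red points were higher and blue points lower after HIBI by the criteria and grey points did not meet them; the blue points lie further to the right (median 57.8%) than the red (median 47.6%).

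Nearly all miRNAs of the imprinted Dlk1-Dio3 cluster had a positive log2 fold change, although few met the criteria. This cluster on the distal end of chromosome 12 is expressed from the maternal copy and holds many neuronal miRNAs. The 61 that passed the CPM minimum come from 42 hairpins between 109563692 and 109747960 (GRCm38). Of these, 58 had a positive and 3 a negative log2 fold change, with a median of 0.47 (0.02 over the other 373 miRNAs, of which 191 were positive). By the criteria 4 were higher and 0 lower, where 3.69% of all 434 were higher and 4.15% lower. They were both arms of miR-410, miR-409-5p and miR-376b-3p. Scaling left the median at 0.60 with library size alone and 0.35 with upper quartile, and after GC correction it was 0.38 over the 58 with a sequence.

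Summed over the cluster, the level was 121272, 81479, 99884 and 80934 CPM in HIBI pups and 49761, 63171, 96866 and 78685 CPM in sham pups. HIBI pup 1 was the highest and sham pup 2 the lowest library, and sham pup 6 lay among the HIBI pups. Leaving out 1 pup at a time gave medians of 0.34 to 0.63 (0.34 without sham pup 2, 0.39 without HIBI pup 5). Without pups 1 and 2 the median was 0.20, and 48 of 61 were positive, against a median of 0.03 and 223 positive of all 434. The same 61 miRNAs had medians of -0.08 in cortex (20 positive) and -0.12 in striatum/thalamus (17 positive). They share a precursor region and are not independent of each other.

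**Figure D5:**
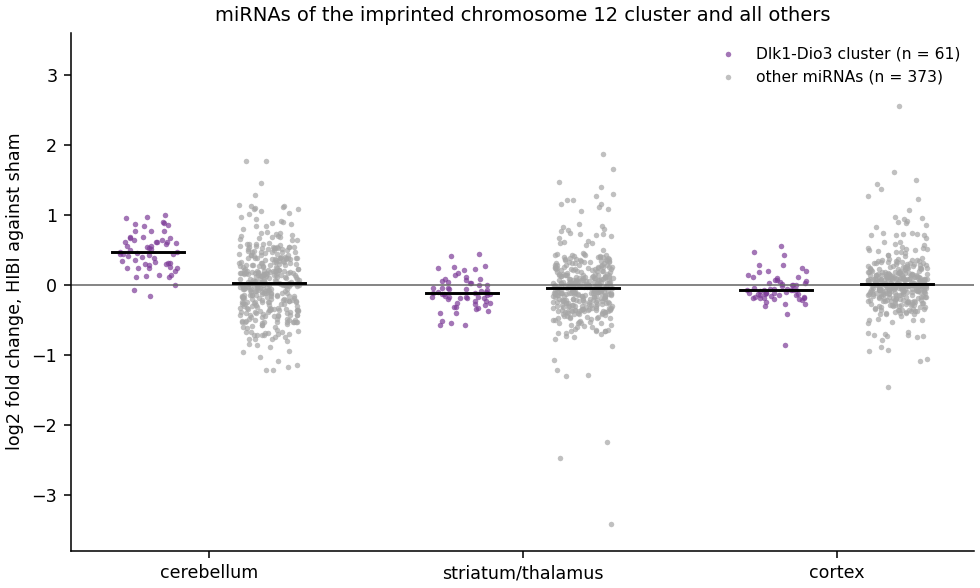
Log2 fold change between HIBI and sham (y axis) for the 61 miRNAs of the Dlk1-Dio3 cluster and the other 373 in cerebellum, striatum/thalamus and cortex, with horizontal scatter only to separate points and lines at the medians. In the cerebellum 58 of 61 cluster miRNAs lie above 0 (median 0.47), while the medians of the cluster are -0.12 in striatum/thalamus and -0.08 in cortex.

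Of 7 activity-regulated miRNAs 0 met the criteria. All 7 had a positive log2 fold change (median 0.33), where 249 of all 434 did. They include miR-132-3p (0.13 ± 0.19) and miR-384-3p, given above. The median was 0.21 without sham pup 2, and 0.17 without pups 1 and 2. After GC correction it was 0.18, and with upper quartile 0.21. Of the 7 neuronal miRNAs, 1 was higher (miR-137-3p), where 3.69% of all 434 were, and 5 had a positive value (median 0.33, with -0.03 after GC correction over 6 of them, and 0.06 without HIBI pup 5). Of the 5 miR-129 miRNAs 2 were higher (background 3.69%), and the median was 0.68. Leaving out HIBI pup 4 brought that median to 0.29, and leaving out pups 1 and 2 to 0.46.

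Of the 14 miRNAs from the miR-17/92 and miR-106b/25 families, 2 were lower and 0 higher (median -0.13), where 4.15% of all 434 were lower and 3.69% higher. The 2 were miR-18a-3p and miR-25-5p, the lesser arm of its hairpin. The abundant arm miR-25-3p had -0.12 ± 0.20, and miR-18a-5p had 0.02 ± 0.30. Mean sham levels of the miR-18a arms were similar, at 39.3 CPM for 3p and 36.2 CPM for 5p. The hypoxia-induced miR-210-3p was under the CPM minimum in the cerebellum, with 13, 16, 12 and 16 counts in HIBI pups and 12, 1, 30 and 12 counts in sham pups. These counts overlapped between the groups, and no test of miR-210-3p was made. The 6 measured miRNAs of the Htr2c introns, a serotonin receptor gene of choroid plexus and neurons, had a median of -0.13 with 0 that met the criteria, and 4 were negative. Of 42 entries with late miRBase numbers (1900 or above), 2 were higher (3.69% of all 434 were) and 1 lower (4.15%), with a median of 0.05. Without HIBI pup 1 the median of the late entries was -0.23, and without pups 1 and 2 -0.18 with 15 of 42 positive. Some of these medians changed sign with the scaling. With library size alone the miR-17/92 list was at 0.01 and the Htr2c introns at 0.06, and with upper quartile the late entries were at -0.08. The miR-17/92 list was at 0.01 without HIBI pup 1, and the Htr2c introns were at 0.11 without HIBI pup 4 and 0.25 without sham pup 2. After GC correction the Htr2c introns were at -0.41 over the 5 with a sequence.

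Markers of other cell types were measured beside these groups. All 6 choroid plexus and ciliated epithelium miRNAs had a negative log2 fold change (median -0.63), and miR-204-3p met the criteria (1 of 6, where 4.15% of all 434 were lower). Their summed level was 2787 to 4211 CPM in HIBI pups, 9890 CPM in sham pup 2 and 2701 to 5118 CPM in the other sham pups. The median was -0.19 without sham pup 2 and -0.24 without pups 1 and 2. After GC correction it was -0.88 over the 5 with a sequence. In cortex and striatum/thalamus the medians were 0.41 and 0.64. How far choroid plexus carried with the tissue contributed to these values was not tested.

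Of the 4 erythrocyte miRNAs 2 were lower (miR-486a-5p and miR-486b-5p, which count as 1 measurement), where 4.15% of all 434 were, and all 4 were negative (median -0.85). The erythroid-specific miR-451a had 138.5, 188, 251 and 323 CPM in HIBI and 143.1, 192, 227 and 495 CPM in sham, for a log2 fold change of -0.23 ± 0.38. The blood content of the samples was not tested. The summed level of the 4 skeletal muscle markers was 377 to 665 CPM in HIBI and 474 to 580 CPM in sham. The cerebellum-enriched miR-206-3p, a muscle miRNA as well, had 273, 335, 277 and 280 CPM in HIBI and 524, 411, 408 and 343 CPM in sham. These groups did not overlap, and the log2 fold change was -0.53 ± 0.20. Over the 3 cerebellum-enriched miRNAs the median was -0.25, and 1 of them was positive (miR-195a-5p, 0.07 ± 0.28). Of the 3 skeletal muscle miRNAs that passed the minimum, 2 were positive. Of these, miR-1a-3p was higher by the criteria, as given above (1 of 3, where 3.69% of all 434 were).

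None of the other markers met the criteria, and those of several cell types had positive values. They were 0.35 ± 0.27 for miR-126a-3p of endothelium, a median of 0.33 for 2 mural cell miRNAs, 0.47 ± 0.33 for miR-223-3p of myeloid cells, and a median of 0.09 for 3 oligodendrocyte miRNAs, which was -0.04 with upper quartile. The 2 forebrain-enriched miRNAs had a median of 0.49, which was 0.31 without HIBI pup 1, 0.29 without sham pup 2, and 0.09 with 1 of the 2 positive without both. The 2 Hox markers that passed the minimum had a median of -0.45 (0.05 without sham pup 3), and miR-200b-3p of pituitary and olfactory epithelium had -0.70. The liver marker miR-122-5p was under the minimum, with 1 to 33 counts.

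Where both arms of a hairpin passed the minimum, their log2 fold changes had the same sign in 80 hairpins and opposite signs in 26, and Pearson's r between the arms was 0.53, as a description across hairpins. Both arms met the criteria in let-7b and miR-410, and a single arm did in 14. In miR-351 the 3p arm had -1.16 ± 0.37 and the 5p arm -0.12 ± 0.21. In miR-25 the 5p arm had -1.21 ± 0.42 beside -0.12 ± 0.20 for the 3p arm, and in miR-296 the 3p arm had -0.74 ± 0.25 beside 0.17 ± 0.31 for the 5p arm. The arms were closer in miR-423 (-0.96 and -0.52), miR-125a (-0.72 and -0.51) and miR-376b (0.77 and 0.89). Other pairs were let-7d (-0.37 for 5p and -0.81 for 3p), miR-195a (0.07 and -0.72), miR-129b (1.09 and 0.25), miR-409 (0.61 and 0.28) and miR-137 (0.46 and 1.77).

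The injury effect in the cerebellum was then tested against the mean of the effects in cortex and striatum/thalamus, in 1 model over the 24 libraries. Pup was not a block in this model, although the same pups gave all regions. By the same limits 68 of 434 miRNAs differed (15.7%), 38 with a more positive and 30 with a more negative effect in the cerebellum. None passed an adjusted p of 0.05 in edgeR's quasi-likelihood test (smallest 0.162, with 75 at an unadjusted p under 0.05). Of the 34 miRNAs called in the cerebellum, 25 were among the 68 (10 of the higher and 15 of the lower). Both tests use the same cerebellum libraries, so this count is not independent. In the Dlk1-Dio3 cluster 19 of 61 had a more positive effect in the cerebellum and 0 a more negative one, where 38 and 30 of all 434 did. With pup as a block, 24 of 61 had a more positive effect and 0 a more negative one, where 50 and 30 of all 434 did. Without sham pup 2 the 19 became 3, without sham pup 3 they became 10 and without HIBI pup 5 they became 5, each with 0 more negative, while without sham pup 6 they became 29. Over all 434, the 38 became 6 without sham pup 2, 18 without sham pup 3 and 15 without HIBI pup 5, and the 68 became 22, 44 and 44. The count for the cluster therefore rests on these pups.

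Taken region by region on the same 434 miRNAs, 17 met the criteria in cortex (3.92%) and 12 in striatum/thalamus (2.76%). Of the 34 from the cerebellum, 4 were called in cortex and 2 in striatum/thalamus. The higher value of miR-3473a was also present in cortex (1.61) and striatum/thalamus (1.86), as was that of miR-3963 (2.54 and 1.15). The lower value of let-7b-5p stood beside 0.15 in cortex and 0.03 in striatum/thalamus, and that of miR-125a-5p beside 0.23 and 0.09. For miR-5126 the cortex value was 0.71 and for miR-615-3p 0.72, both opposite to the cerebellum.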

How the data were processed

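Small RNA libraries (NEXTFLEX kit, 200 ng RNA, NextSeq 550) were aligned by the authors to mature mouse miRNAs of miRBase with bowtie2. The authors deposited raw counts per miRNA, whole numbers with no normalization, and only these were used; versions, the miRBase release and the handling of multiple matches are not given in the sources used here. Of 1551 entries, 20 were castor bean sequences (19 counts, 0.000109% of the total) and were left out. The deposited comparison columns were not used. Groups came from the labels, which name 1 pup per library, so replicates are separate animals. Their counts differed beyond sampling noise (chi-square per degree of freedom 41.1 to 241).

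Counts of the 8 cerebellum libraries were filtered at a mean of 10 CPM, scaled by TMM and fitted with edgeR 4.0.16 (glmQLFit, glmQLFTest) in R 4.3.3, with Benjamini-Hochberg adjustment over all 434. CPM values and sums are after TMM scaling, except the minimum and the region marker medians. Errors are standard errors of the log2 fold change. For single miRNAs, log2(CPM + 1) was also permuted over all 70 arrangements of the pups (exact test, two-sided). The difference between regions was a contrast in a fit of all 24 libraries. Alternatives were other scalings (RLE, library size, upper quartile), other minimums, DESeq2 1.42.0, edgeR's exact and likelihood ratio tests, a loess correction for GC content (span 0.75), pup as a block, and each pup left out. The fits without pups 1 and 2 and on miRNAs with a sequence only were chosen after seeing the data. The scripts were tested on simulated data. Hairpin positions are from GENCODE M21, matched for 414 miRNAs. Named miRNAs are all that met the criteria, the 8 with the smallest p in each direction in full, the 10 most abundant, members of the marker lists, miR-210-3p, both arms of called hairpins, and those the study names. The miRNAs and lists were chosen with earlier results of these data known. PCR duplicates were not marked by molecular identifiers in the counts, so depth bounds counting error only.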

Additional observations from a re-analysis of the deposited data

Results flagged for a closer look

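In 4 of 94 groups examined, 1 pup lay far from the other 3 by Dixon's criterion. The HIBI and sham groups of 42 miRNAs were among the 94, and the 4 were all groups of a miRNA. Chance gives about 1 in 20 such groups. For miR-1251-5p, HIBI pup 1 had 52.6 CPM and the other HIBI pups 36.7 to 38.0 CPM. HIBI pup 4 had 123 CPM of miR-296-3p, where the others had 76.1 to 81.7 CPM. In the sham group, miR-351-3p was at 33.9 CPM in pup 3 and at 17.2 to 18.7 CPM in the others. HIBI pup 1 had 5490 CPM of miR-410-3p against 3149 to 3216 CPM in the others, and without it the log2 fold change of miR-410-3p was 0.37 in place of 0.61.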

How the results depend on the processing

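Of the 434 miRNAs, 34 met the criteria (16 higher, 18 lower). With a minimum of 1 CPM the counts were 61 (35 higher), and with no minimum 62 higher and 44 lower (1.1e+02 in all, rounded), where 6 passed an adjusted p of 0.05 in edgeR's quasi-likelihood test. Library size alone gave 41 higher and 10 lower, and upper quartile 7 higher and 39 lower. Leaving out 1 pup gave 16 to 80 in all, 3 to 42 higher, 12 to 38 lower and 0 by adjusted p. For the difference between regions the range was 22 to 90. Fits with pup as a replicate block, since the same pups gave all regions, put 80 miRNAs in place of 68 past the limits of that difference, with 0 by adjusted p (smallest 0.0700). HIBI and sham pups are different animals, so the cerebellum comparison itself has no pairs. Deviations of a pup from its group correlated between cerebellum and cortex at 0.02 to 0.33 and between cerebellum and striatum/thalamus at -0.15 to 0.57. Without pups 1 and 2, 38 met the criteria, 21 of them among the 34. Under GC correction the log2 fold change of miR-5126 reversed to 0.0668. None of the other called miRNAs changed sign in the fits run. The cause of these shifts was not tested, apart from fewer pups in the fits that leave some out. Depth limits miRNAs near 10 CPM, such as miR-137-3p with 2 to 89 counts.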

Other observations

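The library of HIBI pup 1 had the fewest counts (1254185), the most entries with at least 1 count (912) and the highest GC content weighted by counts (47.5%). In it, 7 of the 434 miRNAs were more than 5 times the median of the other libraries on the CPM + 1 scale, and 5 of the 7 had late miRBase numbers. The leading 4 were miR-6937-5p (185 CPM against 4.35 to 33.3 CPM elsewhere), miR-6240, miR-6236 (114 CPM against 1.33 to 27.5 CPM) and miR-6538 (391 CPM against 17.0 to 97.0 CPM). These were picked after their values were seen. In a principal component analysis of the 434 miRNAs, the first component (39.5% of the variance) had HIBI pup 5 at one end and sham pups 2 and 3 at the other, and its loadings correlated with GC content at -0.57 across miRNAs. The second component (27.4%) set HIBI pup 1 apart.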
